A study of Mus musculus with 6 samples.

Results

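A set of 10 genes known from the macrophages that clear old red cells was followed in RNA sequencing of mouse bone marrow cells: the complement genes C1qa, C1qb and C1qc, the macrophage genes Cd5l, Adgre1, Vcam1 and Axl, the transcription factor gene Spic, and the heme and iron genes Hmox1 and Slc40a1. They are 10 of the 21878 rows of each expression table, and each symbol was found. The cells came from wild-type mice and carry the label LT-HSC, the rare long-term stem cells of marrow that can rebuild all blood lineages. They were sorted as Lin-, Kit+, Sca1+, CD34- and CD135-. For 3 months the animals ate a diet free of serine and glycine (SGFD, 3 libraries) or a control diet (CD, 3 libraries). No label says whether a library came from 1 mouse or a pool, or gives the strain, sex or age, so p-values measure only the spread between these libraries, which may be partly technical. The set was put together with the difference between the diets known, so its SGFD to CD values are given as a description and without a test.

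In spleen, liver and marrow, macrophages engulf aged red cells, split the heme with heme oxygenase (Hmox1) and return the iron to the blood through ferroportin (Slc40a1), the only known iron exporter of mammalian cells. Heme itself relieves the repressor BACH1, which in mouse macrophages lets Spic, Hmox1 and Slc40a1 be transcribed, and SPIC is needed for the red pulp macrophages of the mouse spleen and their VCAM1+ counterparts in marrow. C1q, the recognition molecule of the classical complement pathway, is built from chains A, B and C and is made mainly by macrophages and immature dendritic cells. In marrow, macrophages form the centre of the islands in which erythroblasts mature and help to keep stem cells in their niche.

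All 10 genes were low for cells sorted as stem cells, and 9 of them were lower with SGFD than with CD in every library. By the ratio of means, the C1q genes, Cd5l and Spic were the furthest apart, Hmox1 and Vcam1 came next, and Slc40a1 and Axl were closer. The counting intervals of Spic, Hmox1 and Vcam1, given below, overlap one another, so the order of these genes is not settled. Adgre1, which encodes F4/80, the classical mouse macrophage surface marker, did not separate the diets. All 3 SGFD values lay below all 3 CD values for 9 of the 10 genes; the same held for 36.4% of the 15509 genes above 0 in any library, and since the genes were chosen on this contrast the count is given as background and no more. Values are read as FPKM, fragments scaled to gene length and library size, a unit inferred from the values, so levels can be compared between genes. In CD, the mean levels of the 10 genes stood between the 23.8% mark (Adgre1) and the 47.3% mark (Hmox1) of all genes above 0 in that diet.

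**Figure D1:**
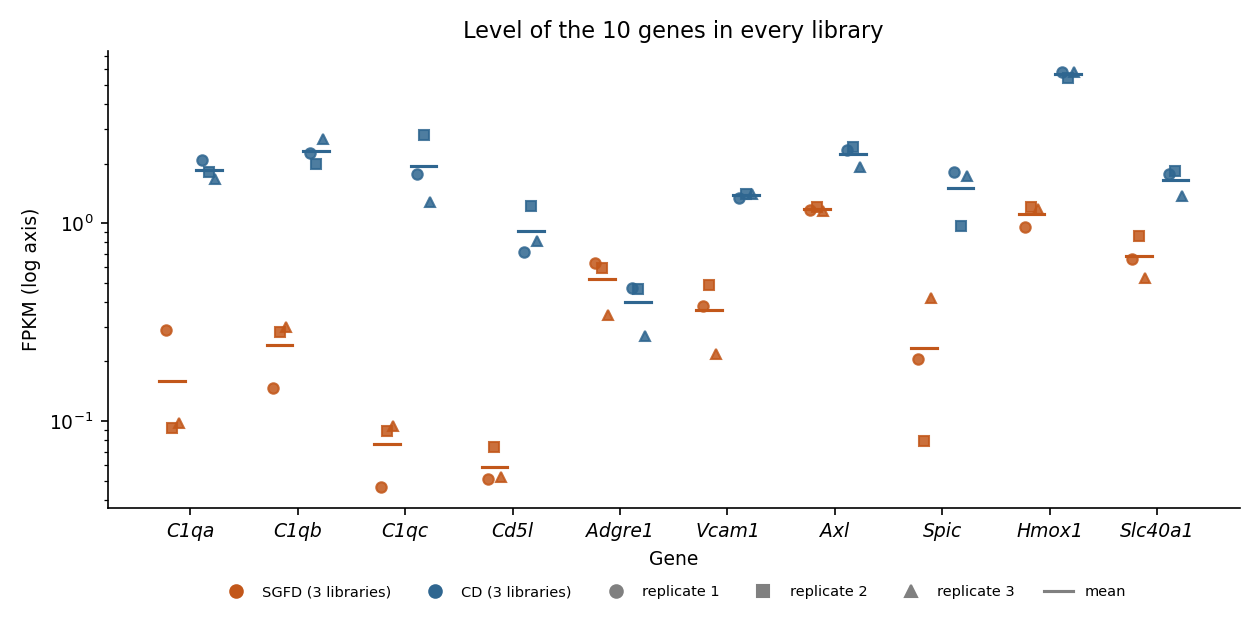
FPKM on a log axis of the 10 genes in each of 3 SGFD libraries (orange) and 3 CD libraries (blue), with marker shapes for replicate numbers and bars for group means. The groups overlap for Adgre1 alone; the largest vertical gap is that of C1qc, with means of 0.0766 FPKM in SGFD and 1.95 FPKM in CD.

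Fragments were recovered from the FPKM values as whole numbers, for genes holding 98.0% to 98.2% of the summed FPKM of a library. Their sums ran from 18427138 to 19531159 over the 6 libraries, which had between 13781 and 14106 genes above 0. The sums are estimates, since for abundant genes the fit can arise by chance. For the 10 genes the recovered fragments ran from 1 to 123 per library with SGFD and from 18 to 232 with CD, and 5 genes had a library with 3 fragments or fewer. These are the smallest whole numbers that fit. The gene length they imply lay within 25% of the longest annotated transcript for 9 genes, Spic being the exception at 1297 against 2290 bases. Genes of the labelled cell were present: in SGFD and CD libraries, Kit averaged 71.4 and 121.7 FPKM and the stem cell factor gene Hlf 21.9 and 56.2 FPKM, while mRNAs of 2 antigens that the gate excludes, Cd34 (429 and 471 FPKM) and Flt3 (90.5 and 114 FPKM), were also abundant. Against these levels the macrophage genes are minor transcripts. In bulk RNA, fewer cells of a type and less RNA per cell cannot be told apart.

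The C1q genes lie side by side on chromosome 4, within 18.7 kb of the mouse genome GRCm38 (136880126 to 136898844), in the order C1qb (136880126 to 136886200), C1qc (136889801 to 136892936) and C1qa (136895916 to 136898844). C1qa had 0.288, 0.0925 and 0.0978 FPKM in SGFD replicates 1 to 3, against 2.07, 1.81 and 1.67 FPKM in CD replicates 1 to 3. C1qb had 0.147, 0.283 and 0.299 FPKM with SGFD and 2.26, 1.999 and 2.65 FPKM with CD. C1qc had 0.0464, 0.0892 and 0.0943 FPKM with SGFD and 1.77, 2.79 and 1.28 FPKM with CD. In each case every SGFD library was lower than every CD library, and within a diet no library was highest for all 3 chains.

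In fragments, the SGFD libraries held 6, 2 and 2 for C1qa, 3, 6 and 6 for C1qb and 1, 2 and 2 for C1qc, and the CD libraries held 43, 37 and 34, then 46, 40 and 53, then 38, 59 and 27. The ratio of SGFD to CD was 0.0861 for C1qa, with a 95% counting interval of 0.0400 to 0.164 (exact binomial on the summed fragments, covering counting error only). It was 0.105 for C1qb, with an interval of 0.0575 to 0.180, and 0.0394 for C1qc, with an interval of 0.0126 to 0.0945. The 3 intervals overlap one another, and the difference between chains was not tested.

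Added up, C1q mRNA came to 0.482, 0.464 and 0.491 FPKM in the SGFD libraries, against 6.10, 6.60 and 5.60 FPKM in the CD libraries. That is 0.479 ± 0.0136 FPKM with SGFD and 6.10 ± 0.502 FPKM with CD (SD, n = 3 each), a ratio of 0.0785. Each SGFD library held 10 C1q fragments, and the CD libraries held 127, 136 and 114. C1qa, C1qb and C1qc made up 33.3%, 50.7% and 16.0% of the summed level with SGFD, from 30 fragments, and 30.4%, 37.8% and 31.9% with CD, from 377 fragments.

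**Figure D2:**
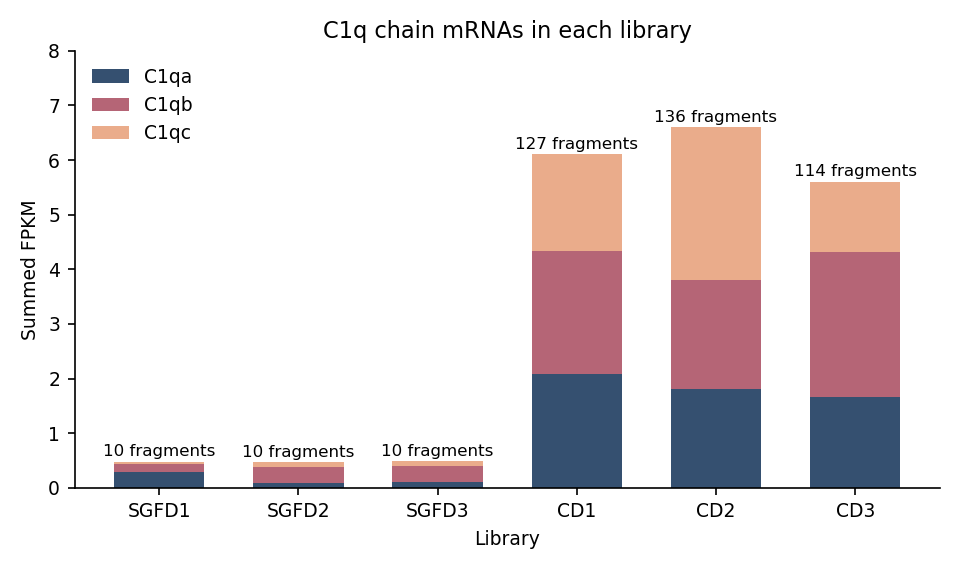
Summed FPKM of C1qa, C1qb and C1qc in each library, stacked by gene and labelled with the number of recovered fragments. The SGFD bars reach 0.464 to 0.491 FPKM and the CD bars 5.60 to 6.60 FPKM, and the share of each chain varies among the CD libraries.

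The 250 bases before the annotated start are shown for the 4 genes with a RefSeq window (GRCm38.p6) that had the lowest SGFD to CD ratios among genes with such a window: C1qb (chr4:136886201-136886450, minus strand), C1qc (chr4:136892915-136893164, minus strand), Cd5l (chr3:87357631-87357880, plus strand) and Spic (chr10:88683024-88683273, minus strand). A window was found for 5 of the 10 genes, Axl included. The start is that of the RefSeq table, which for C1qc and Axl lies inside the gene bounds given here, so that 22 and 191 bases of their windows fall within those bounds. Sequences run 5′ to 3′, and capitals mark matches on either strand to the core letters bound by PU.1 (GAGGAA), the master factor of myeloid cells, by MAF factors (TGCTGA), and to the antioxidant response element (TGACNNNGC) that BACH1 and NRF2 share.
C1qb: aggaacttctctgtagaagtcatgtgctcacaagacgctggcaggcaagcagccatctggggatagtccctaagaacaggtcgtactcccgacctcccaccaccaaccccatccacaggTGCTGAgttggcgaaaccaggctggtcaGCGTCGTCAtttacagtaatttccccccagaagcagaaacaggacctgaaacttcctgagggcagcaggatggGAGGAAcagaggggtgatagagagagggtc
C1qc: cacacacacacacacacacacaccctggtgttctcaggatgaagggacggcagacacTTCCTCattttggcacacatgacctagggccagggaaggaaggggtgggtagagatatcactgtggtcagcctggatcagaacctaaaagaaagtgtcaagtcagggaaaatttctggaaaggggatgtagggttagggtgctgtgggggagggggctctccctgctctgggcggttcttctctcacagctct
Cd5l: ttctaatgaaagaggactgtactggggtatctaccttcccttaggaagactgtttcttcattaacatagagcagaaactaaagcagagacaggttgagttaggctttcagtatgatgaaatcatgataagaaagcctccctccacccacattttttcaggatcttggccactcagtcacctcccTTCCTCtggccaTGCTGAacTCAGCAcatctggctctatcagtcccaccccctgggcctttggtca
Spic: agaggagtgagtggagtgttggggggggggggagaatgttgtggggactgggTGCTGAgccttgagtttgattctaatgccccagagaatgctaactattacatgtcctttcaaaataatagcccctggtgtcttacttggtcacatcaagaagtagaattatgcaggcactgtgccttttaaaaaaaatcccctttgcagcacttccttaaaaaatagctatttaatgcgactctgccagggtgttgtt

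The C1qb window held 1 match to each of the 3 patterns, the PU.1 core at positions -30 to -25, the MAF core at -131 to -126 and an antioxidant response element, on the opposite strand, at -103 to -95, with -1 the last base before the start. In C1qc the capitals are 1 PU.1 core on the opposite strand. Cd5l held 1 PU.1 core and 2 MAF cores that face each other, Spic held 1 MAF core, and Axl held 1 PU.1 core. No match overlapped another. Among all 32851 windows of this length, 23.3% held the PU.1 letters, 16.1% the MAF letters and 10.2% the antioxidant letters, so each is a common short string; a match is a description of the letters and says nothing of binding.

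Cd5l (chromosome 3, 87357881 to 87371074) encodes a secreted scavenger protein of tissue macrophages, also called AIM. It had 0.0511, 0.0737 and 0.0519 FPKM with SGFD, from 2, 3 and 2 fragments, against 0.718, 1.22 and 0.808 FPKM with CD, from 28, 47 and 31 fragments. The SGFD libraries were all lower, at a ratio of 0.0642 with a counting interval of 0.0253 to 0.138. Its interval overlaps those of the 3 C1q genes.

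Spic (chromosome 10, 88675269 to 88683023) encodes the ETS factor SPIC. It had 0.205, 0.0790 and 0.418 FPKM in SGFD replicates 1 to 3 and 1.81, 0.964 and 1.72 FPKM in CD replicates 1 to 3. Its SGFD libraries were all below its CD libraries, though SGFD replicate 3 (10 fragments) stood closer to CD replicate 2 (23 fragments) than any other pair across the diets. The ratio was 0.156, with a counting interval of 0.0865 to 0.258.

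Hmox1 (chromosome 8, 75093618 to 75100593) was the most abundant of the 10 genes in CD. It had 0.957, 1.21 and 1.17 FPKM with SGFD, against 5.83, 5.42 and 5.83 FPKM with CD, which is 1.11 ± 0.136 and 5.69 ± 0.237 FPKM (SD, n = 3 each). The groups lay far apart relative to their spread, at a ratio of 0.195 with a counting interval of 0.157 to 0.242. Heme oxygenase 1 is also induced in many other cells by heme and oxidative stress, so its mRNA does not mark macrophages alone.

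Slc40a1, the ferroportin gene (chromosome 1, 45908070 to 45926532), had 0.655, 0.859 and 0.530 FPKM in the SGFD libraries and 1.76, 1.82 and 1.37 FPKM in the CD libraries. All SGFD values were lower, at a ratio of 0.413 with a counting interval of 0.337 to 0.507. The variance over mean of its fragments was 2.74 for SGFD and 2.44 for CD, where pure counting gives 1. All genes in the fragment range of the set had medians of 2.30 and 1.97. With 3 libraries in a diet, an excess over counting was not tested.

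Vcam1 (chromosome 3, 116110020 to 116129688) encodes an adhesion molecule that marks niche macrophages as well as endothelial and stromal cells. With SGFD it had 0.383, 0.486 and 0.218 FPKM, against 1.34, 1.41 and 1.41 FPKM with CD. The CD libraries were nearly alike, the SGFD libraries spread more widely, and all of them were lower, at a ratio of 0.262 with a counting interval of 0.200 to 0.343.

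Axl (chromosome 7, 25756500 to 25788924) encodes a receptor tyrosine kinase that binds GAS6 on dying cells. It had 1.17, 1.21 and 1.14 FPKM in the SGFD libraries and 2.34, 2.42 and 1.92 FPKM in the CD libraries. Its ratio of 0.527, with a counting interval of 0.461 to 0.601, was the closest to 1 of the 9 lower genes. With 110 to 123 fragments per SGFD library it was also the best counted of the 10 genes in that diet.

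Adgre1 (chromosome 17, 57358581 to 57483529) had 0.630, 0.592 and 0.343 FPKM in SGFD replicates 1 to 3, against 0.471, 0.463 and 0.269 FPKM in CD replicates 1 to 3. The groups overlapped, because SGFD replicate 3 lay below CD replicates 1 and 2. The ratio was 1.30, with a counting interval of 0.968 to 1.76. F4/80 is also made by monocytes and eosinophils in mice. By mean level it was the lowest of the 10 genes in CD and the fourth in SGFD.

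With SGFD the order of mean levels was Axl, Hmox1, Slc40a1, Adgre1, Vcam1, C1qb, Spic, C1qa, C1qc and Cd5l. The library values of each neighbouring pair overlapped except Hmox1 and Slc40a1. With CD the order was Hmox1, C1qb, Axl, C1qc, C1qa, Slc40a1, Spic, Vcam1, Cd5l and Adgre1. Here Hmox1 stood clear above C1qb, Cd5l clear below Vcam1 and Adgre1 clear below Cd5l, while every neighbouring pair from C1qb to Vcam1 overlapped.

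Whether the genes rise and fall together across libraries was described inside each diet, since the diets form separate clusters; with 3 libraries in each, no correlation was tested. Inside a diet the genes did not keep a common order. All 6 possible orders of the 3 libraries occurred among the 10 genes, with SGFD and again with CD. The same order was shared by 5 of the 45 gene pairs in each diet, 11.1%, while over all pairs of the 10620 genes tested below it was shared by 18.6% with SGFD and 16.8% with CD. SGFD replicates 1 to 3 were highest for 2, 5 and 3 of the 10 genes and CD replicates 1 to 3 for 3, 4 and 3.

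The C1q genes also differed in order. Whether this goes beyond counting error was not tested, and nothing is read from it. In CD the variance of the fragments over their mean, 1 for pure counting, was 0.467 for C1qa, 0.941 for C1qb and 6.50 for C1qc. In CD, C1qa was highest in replicate 1, C1qb in replicate 3, at 15.1% above its CD mean, and C1qc in replicate 2, at 43.4% above. In SGFD, C1qb and C1qc shared an order, from 15 and 5 fragments in all, while C1qa was highest in the library where both others were lowest. Slc40a1 and Axl had the same order in both diets, replicate 2 above 1 above 3, which Vcam1 shared in SGFD only. Adgre1 had replicate 1 above 2 above 3 in both diets; replicate numbers are names and do not pair the libraries.

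With so few fragments, counting alone makes libraries differ. The variance of the fragments divided by their mean, which is 1 for pure counting, ranged from 0.0937 (Axl) to 3.32 (Vcam1) among the SGFD libraries, with a median of 1.11 over the 10 genes, and from 0.0749 (Vcam1) to 6.50 (C1qc) among the CD libraries, with a median of 2.31. It was above 1 for 5 genes with SGFD and 6 with CD. Over all genes in the same range of fragments its median was 2.30 with SGFD and 1.97 with CD. C1qc in CD was the widest, with an SD of 16.4 fragments around 41.3 where counting gives 6.43.

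**Figure D3:**
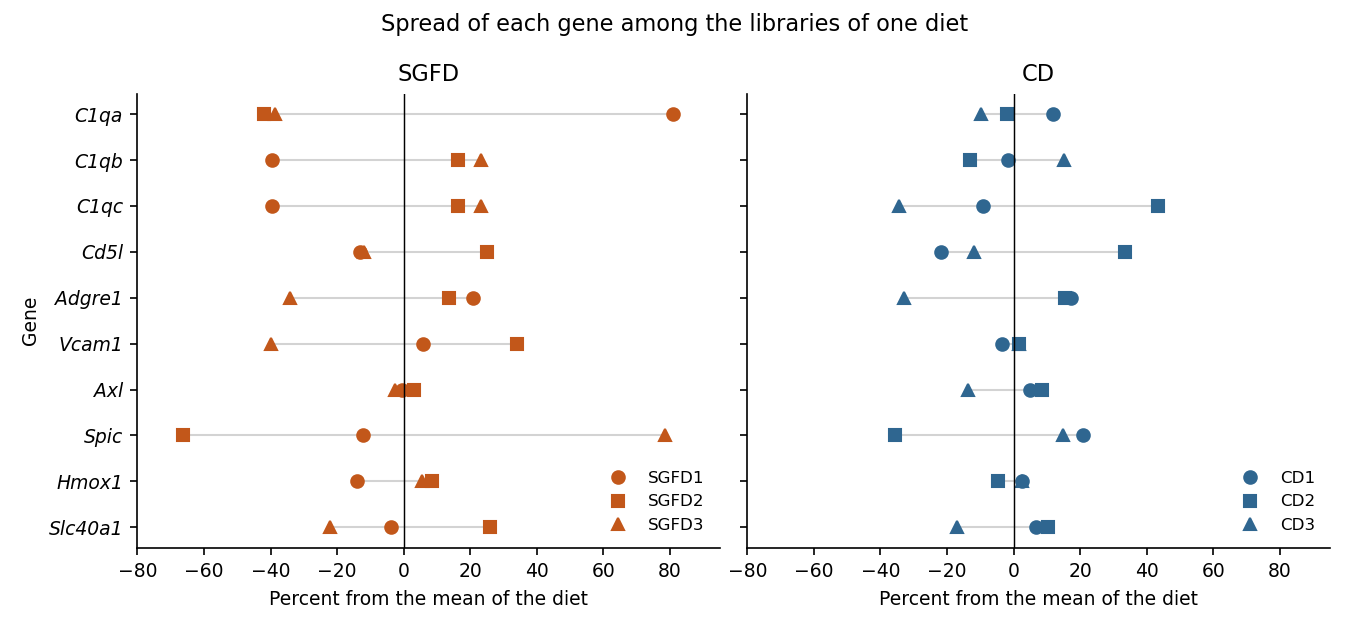
Each library's FPKM as percent from the mean of its own diet, for the 10 genes in 3 SGFD libraries (left) and 3 CD libraries (right); grey lines join the lowest and highest library. No library lies on one side of 0 for all genes, and C1qc in CD runs from -34.3% to 43.4%.

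Of the genes outside the set, those with a mean of at least 1 FPKM in CD were ranked by the distance of their profile from summed C1q, as the root mean square difference of log2(FPKM + 0.1) over the 6 libraries after removing each gene's own mean. The 5 nearest were Igll1 (0.41), a surrogate light chain gene of early B cells, Fcna (0.45), the macrophage lectin ficolin A, Gimap7 (0.48), a GTPase gene of lymphoid cells, Hmga2 (0.54), a chromatin protein gene of fetal stem cells, and Slc35d3 (0.58), a transporter gene of platelet granules. Fcna had 0, 0.0616 and 0.0978 FPKM with SGFD, against 0.997, 0.883 and 1.54 FPKM with CD. Within the set the distances were 0.28 to 0.43 for C1qa, C1qb, C1qc and Cd5l, 0.60 for Hmox1, 0.76 for Spic, 0.89 for Vcam1, 1.14 for Slc40a1, 1.28 for Axl and 1.88 for Adgre1. C1qa, C1qb and C1qc are parts of the sum, so their short distances are built in. The other distances hold the difference between the diets, which was known when the set was chosen. All 5 nearest genes had every SGFD value below every CD value. The ranking selects for this, since the distance keeps the difference between the diets and genes were admitted by their CD level, so nothing is read from it. The 5 genes are known from several lineages.

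Related genes that are not in the set were then compared in a limma fit on log2(FPKM + 1) over the 10620 genes that reached 1 FPKM in 3 or more libraries, with Benjamini-Hochberg adjustment. That fit called 59.4% of genes at an adjusted p of 0.05, 17.7% higher and 41.8% lower with SGFD, which is 1875 and 4438 genes. After median-ratio scaling it called 2925 higher and 2977 lower, and the median log2 fold change of all genes moved to -0.02, against -0.13 without it. Of the 10 genes of the set 7 entered it, 5 of them through CD alone since every SGFD library was under 1 FPKM, and all 7 were called lower; without the filter 9 of 10 were, where 29.6% of 15509 genes were, and nothing is read from these counts.

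Of 22 other macrophage genes 7 were tested. Csf1r, Lgmn, Cd68, Dnase2a and Cx3cr1 rose and Cd163 and Apoe fell, 5 and 2 genes, and the median log2 fold change was 0.61; Cx3cr1, the fractalkine receptor gene, falls outside the rule for named genes and is named after its values were seen. Csf1r, the receptor that macrophages need to survive, rose to 21.4 ± 0.326 FPKM with SGFD, against 6.37 ± 0.24 FPKM with CD (log2 fold change 1.61 ± 0.06 SE, limma adjusted p = 2.52e-08). The next 3 by p also rose. Lgmn, a lysosomal protease gene, averaged 6.74 ± 0.656 and 3.12 ± 0.235 FPKM, Cd68 21.7 ± 1.29 and 13.9 ± 0.439 FPKM, and Dnase2a, which digests the DNA of engulfed nuclei, 38.7 ± 2.65 and 27.0 ± 0.952 FPKM in SGFD and CD libraries. Most monocyte markers, given below, rose in the same libraries, and which cells these mRNAs came from was not tested.

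Cd163, the scavenger receptor for haptoglobin-bound hemoglobin, went the other way, at 0.531 ± 0.13 FPKM with SGFD and 1.21 ± 0.0448 FPKM with CD (limma adjusted p = 0.00126), and entered the fit through CD alone. Apoe, an apolipoprotein gene active in macrophages and early progenitors, fell to 88.0 ± 7.5 FPKM, against 106 ± 4.08 FPKM, a call lost after median-ratio scaling (limma adjusted p = 0.0934). Without the filter, 8 of 19 were lower and 5 higher, against 29.6% and 12% of all genes, and the median log2 fold change of -0.05 was near the -0.06 of all genes. Genes under the filter are named here after their values were seen: Siglec1 (CD169) had 0.0133 ± 0.0169 and 0.132 ± 0.0191 FPKM, Mertk, a relative of Axl, 0.0240 ± 0.0263 and 0.155 ± 0.0453 FPKM, and the mannose receptor gene Mrc1 0.140 ± 0.0459 and 0.503 ± 0.117 FPKM in SGFD and CD libraries, all 3 lower in that fit (limma adjusted p = 0.00416, 0.0106 and 0.00332). Other genes under the filter had higher means with SGFD. Trem2 averaged 0.298 ± 0.139 and 0.108 ± 0.0273 FPKM, and Fcgr4 0.210 ± 0.225 and 0.0283 ± 0.0491 FPKM in SGFD and CD libraries. Neither passed in that fit (limma adjusted p = 0.0547 and 0.190). Clec4f, Lyve1 and Folr2 were listed at 0 in every library, and Timd4, Marco and Vsig4 had at most 3 fragments over a diet. These 6 mark resident macrophages of liver and other tissues.

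Of 24 further heme and iron genes, Cd163 again among them, 23 were in the tables and 18 tested. Of these, 5 rose and 6 fell, where 17.7% and 41.8% of all tested genes did. The median log2 fold change was -0.06, and -0.02 over the 23 without the filter. Haptoglobin (Hp), which binds free hemoglobin, rose to 65.4 ± 6.07 FPKM with SGFD, against 4.23 ± 0.72 FPKM with CD, and the transferrin receptor gene Tfrc to 40.6 ± 4.37 FPKM, against 19.2 ± 1.52 FPKM. Transferrin (Trf) averaged 77.6 ± 4.95 and 60.8 ± 1.59 FPKM, and Lrp1, the receptor for hemopexin-bound heme, 1.97 ± 0.33 and 1.04 ± 0.135 FPKM in SGFD and CD libraries; both rose. Ncoa4, which delivers ferritin to lysosomes, fell to 35.3 ± 1.43 FPKM, against 44.3 ± 0.779 FPKM (limma adjusted p = 0.000261). Cd163, given above, was also called lower. So were Hmox2 (means 41.3 and 46.4 FPKM in SGFD and CD libraries), Abcg2 (11.6 and 15.3 FPKM), Ireb2 (8.82 and 12.4 FPKM) and Slc39a14 (2.56 and 3.66 FPKM). Hmox2, Abcg2, Ireb2 and Slc39a14 fall outside the rule for named genes and are named after their values were seen. Ferritin heavy chain (Fth1) rose by 0.23 on the log2 scale but fell by 0.12 after quantile normalization, so its direction depends on the scaling. The heme transporter gene Slc48a1 (49.2 ± 3.34 and 49.7 ± 1.09 FPKM) did not pass, and it was chosen after its values were seen.

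Most genes with a call in a wider complement list were higher in SGFD. Of 28 listed, Lrp1 and Vsig4 again among them, 27 were in the tables and 14 tested. Calls were higher for 8 and lower for 2, and the median log2 fold change was 0.24. The 8 were C3, C4b, C1rl, Cfp, Itgam, Calr, C1qbp and Lrp1, not all of them complement components. C1rl, Cfp and Itgam fall outside the rule for named genes and are named after their values were seen. Without the filter 26 genes were tested, 7 were higher and 2 lower, and the median was 0.01. C3, the central component of all complement pathways, rose to 8.41 ± 0.168 FPKM with SGFD, against 1.10 ± 0.299 FPKM with CD (log2 fold change 2.17 ± 0.10 SE, limma adjusted p = 1.61e-07). C4b, which the C1 complex cleaves, rose to 3.97 ± 0.494 FPKM, against 1.29 ± 0.137 FPKM. Calr and C1qbp, which encode proteins of other main functions that can bind C1q, averaged 962 ± 21.2 and 230 ± 6.12 FPKM with SGFD and 664 ± 8.27 and 168 ± 3.5 FPKM with CD. Cd93, a glycoprotein gene of stem, endothelial and myeloid cells, fell, at 46.9 ± 2.16 and 56.9 ± 0.616 FPKM in SGFD and CD libraries, as did the complement regulator gene Cd55, at 0.770 ± 0.133 and 1.36 ± 0.147 FPKM, which entered the fit through CD alone, a call that Cd55 lost after quantile normalization (limma adjusted p = 0.143).

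Among 12 genes of the uptake of dying cells, Mertk and Timd4 of the macrophage list included, 6 were tested and 1, Gas6, was called lower. Their median log2 fold change was -0.08; without the filter 4 of 12 were lower, with a median of -0.10. Gas6, the ligand of Axl, had 2.18 ± 0.252 FPKM with SGFD and 5.26 ± 0.419 FPKM with CD (log2 fold change -0.98 ± 0.09 SE, limma adjusted p = 2.08e-05). Axl and Gas6 were thus both lower in SGFD libraries. The integrin genes Itgav (1.92 ± 0.413 and 2.63 ± 0.558 FPKM) and Itgb3 (5.32 ± 0.416 and 4.62 ± 0.407 FPKM in SGFD and CD libraries) did not pass; Itgb3 passed after median-ratio scaling and quantile normalization, and Itgav passed without SGFD replicate 2 (limma adjusted p = 0.0193) or without CD replicate 1 (limma adjusted p = 0.0448).

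Of 15 transcription factors and regulators 11 were tested, 5 rose and 4 fell, and none was called lower after median-ratio scaling or quantile normalization. The median log2 fold change was 0.13, but over all 15 without the filter, where 5 were higher and 5 lower, it was -0.07, so its sign depends on the filter. Klf4, a monocyte factor and early response gene, rose to 24.4 ± 5.05 FPKM with SGFD, against 6.93 ± 0.8 FPKM with CD, and Irf8 to 43.3 ± 0.616 FPKM, against 28.6 ± 0.945 FPKM. Id3, which in mice supports liver macrophages, rose to 3.17 ± 0.392 FPKM, against 0.833 ± 0.315 FPKM. Spi1, which encodes PU.1, had 75.0 ± 6.04 and 60.9 ± 2.02 FPKM in SGFD and CD libraries (limma adjusted p = 0.00152). Keap1, the repressor of NRF2, and the retinoid receptor gene Rxra fell, both calls being lost after median-ratio scaling (limma adjusted p = 0.180 and 0.0610) and after quantile normalization (0.0823 and 0.800).

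In the adhesion list 5 of 7 genes were tested, of which 1 was called higher and 1 lower, and the median log2 fold change was -0.00. The P-selectin gene Selp rose to 20.5 ± 0.414 FPKM with SGFD, against 9.61 ± 0.498 FPKM with CD, and Itga4, which encodes the integrin chain that binds VCAM1, fell to 28.2 ± 2.39 FPKM, against 36.3 ± 0.551 FPKM (limma adjusted p = 0.000643). Its partner Itgb1 (78.7 ± 0.858 and 77.0 ± 3.07 FPKM) and Itgb7 (11.2 ± 1 and 11.3 ± 0.287 FPKM in SGFD and CD libraries) did not pass and changed sign with the scaling, though Itgb1 did after median-ratio scaling (limma adjusted p = 0.0143).

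**Figure D4:**
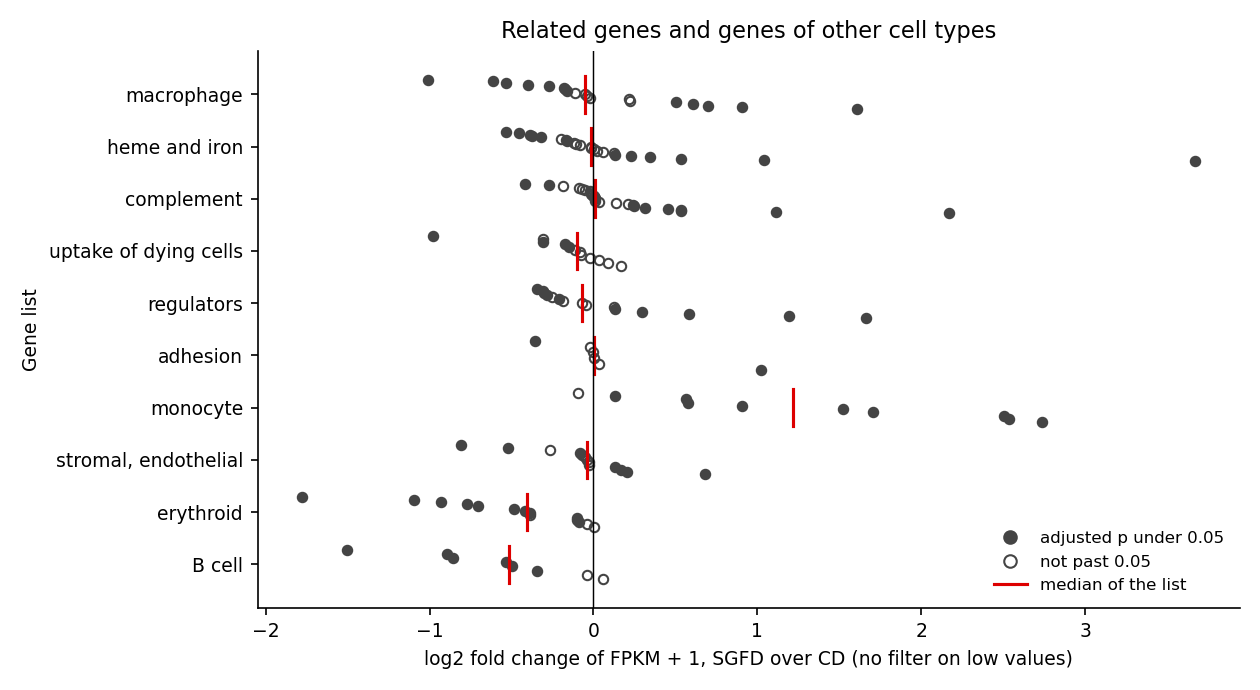
Log2 fold change of FPKM + 1, SGFD over CD, for each gene of 10 lists in the fit without a filter; filled points passed an adjusted p of 0.05, open points did not, and red bars are list medians. Macrophage genes spread to both sides of 0, C3 stands at 2.17 in the complement list, and the monocyte list lies mostly to the right.

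Markers of other cells also differed between the same libraries, in a fit that called 17.7% of all tested genes higher and 41.8% lower. Of 9 tested monocyte markers, 1 of which entered the fit through SGFD alone, 8 rose, and their summed level ran from 537 to 575 FPKM in SGFD libraries and from 311 to 325 FPKM in CD libraries. All 6 tested neutrophil markers rose, with sums of 38.9 to 41.6 FPKM and 13.3 to 13.5 FPKM, but 3 of them, Camp, Lcn2 and Cxcr2, entered the fit through SGFD alone. Stem cell markers fell in 10 of 11 cases, with sums of 215 to 223 FPKM and 377 to 380 FPKM. Without the filter 8 of 11 were called lower, where 29.6% of all genes were. Erythroid markers fell in 4 of 5 tested cases, their sums being 103 to 108 FPKM and 224 to 230 FPKM, and B cell markers in 3 of 4, with sums of 25.5 to 26.4 FPKM and 27.8 to 37.2 FPKM in SGFD and CD libraries; 2 of those 4, Cd79a and Igll1, entered the fit through CD alone. In the stromal and endothelial list, whose sums overlapped (62.8 to 68.5 FPKM with SGFD and 63.9 to 66.8 FPKM with CD), 3 of 5 tested rose and 2 fell, 1 having entered through SGFD alone, 4 of 13 were higher and 3 lower without the filter, and 7 of 13 genes were under 0.5 FPKM everywhere. Summed over the 22 macrophage genes the level was 170 to 192 FPKM with SGFD and 158 to 164 FPKM with CD. Such sums follow their most abundant genes and do not measure cell content. In the macrophage list these were Apoe, Dnase2a, Cd68 and Csf1r, while 12 of 22 genes were under 0.5 FPKM everywhere. Car2 (means 89.4 and 192 FPKM) led the erythroid sums and Cd79b (24.0 and 23.1 FPKM in SGFD and CD libraries) the B cell sums. Pecam1 (36.8 and 32.5 FPKM) and Pdgfrb (18.2 and 15.7 FPKM) led the stromal and endothelial sums. In that list Cxcl12 averaged 0.0552 and 0.516 FPKM and Sparc 1.26 and 0.420 FPKM in SGFD and CD libraries. Cxcl12 was 1 of the 3 called lower without the filter and Sparc 1 of the 4 called higher. Both were chosen after their values were seen. The part of any of these cell types in the values of the 10 genes was not tested.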

How the data were processed

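RNA sequencing of 6 libraries, 3 SGFD and 3 CD, was analysed. The authors deposited 1 table per library with 1 value per gene symbol, read here as FPKM because of their range, sums and steps, since no label names the unit. Per the submitters' processing notes, fastp, HISAT2 and StringTie were used with GRCm38 and mm10; versions, annotation and filters are not given in the sources used here. For 15508 of the 15509 genes above 0 the deposited FPKM were whole multiples of a step per gene and library within 0.02 fragments, which gave the fragments; for abundant genes this match can arise by chance.

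Group means, SD, ratios and exact binomial 95% intervals of fragment ratios were computed, and limma 3.58.1 in R 4.3.3 (trend, robust, two-sided) was fitted to log2(FPKM + 1), which understates changes of low genes, for genes of at least 1 FPKM in at least 3 libraries. The fit was tested on simulated data. The 10 genes, the lists and the rule for named genes (up to 4 genes of smallest p per list, up to 2 that went the other way or did not pass, and the 5 nearest profiles) were chosen with earlier results of these data known. Coordinates and promoter windows came from RefSeq GRCm38.p6. No filter, a pseudocount of 0.1, 2 scalings, the replicate number as a block and leaving out each library were tried.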

Additional observations from a re-analysis of the deposited data

How the results depend on the processing

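The 9 lower genes kept all SGFD values below all CD values after median-ratio scaling, with ratios from 0.0429 to 0.575, and Adgre1, at 1.42, still overlapped. The summed C1q ratio was 0.0785, and it became 0.0857 after median-ratio scaling and 0.0713 after quantile normalization; leaving out 1 library gave 0.0754 to 0.0819. Of the 7 genes of the set that passed the filter, 2 still did without any 1 CD library, since the other 5 enter through CD alone. Over all genes, 1875 higher and 4438 lower calls became 2925 and 2977 after median-ratio scaling and 2261 and 2552 after quantile normalization. Without the filter 13 macrophage genes outside the set were called in place of 7, because more were tested. Genes of uptake of dying cells went from 1 call to 4 without the filter, 3 after median-ratio scaling and 2 after quantile normalization, and leaving out 1 library gave 1 to 3; without SGFD replicate 2 there were 3 calls and without CD replicate 1 there were 2, and the cause was not tested. Fth1 reversed to -0.12 after quantile normalization (limma adjusted p = 0.000725; cause not tested). Of 335 repeats over 31 named genes, 319 kept direction and call, 6 lost the call, 5 gained it and 5 changed sign. Beside Fth1 these were Itgb7, not called in any, at 0.10 after median-ratio scaling, 0.15 after quantile normalization and 0.049 without SGFD replicate 2 (range on leaving out 1 library -0.063 to 0.049), and Itgb1 at -0.079 after quantile normalization. With the replicate number as a block 5793 genes were called in place of 6313; the numbers do not pair the libraries, as deviations of same-numbered libraries correlated at -0.01, -0.23 and -0.13 and 0 of 6 libraries correlated best with their own number. Depth limits C1qa, C1qb, C1qc, Cd5l and Spic most, with 5 to 17 fragments over the SGFD libraries.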
